A study of Mus musculus with 2 samples.

Results

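The genes Irf8, Batf3, Irf4, Zbtb46, Id2, Klf4, Flt3, Zeb2 and Notch2 regulate the development and identity of dendritic cells (DC). They were chosen by name, as 9 of the 26981 genes counted in CD45+ cells of mouse visceral adipose tissue (VAT). Their counts were read in the cells that held at least 500 gene UMIs (unique molecular identifiers, each marking 1 captured mRNA molecule), at least 200 genes and at most 25% mitochondrial UMIs, which were 12474 cells of the normal water (NW) library and 12724 cells of the antibiotic (ABX) library. Both libraries came from wildtype C57BL/6 mice aged 15 weeks, which drank normal water in one group and received antibiotics in the other. The methods of the study describe ampicillin, streptomycin, colistin and vancomycin given in drinking water, alone or as a mixture, and the labels do not say which was used here. The labels name the tissue as visceral adipose tissue and as eWAT (epididymal white adipose tissue). CD45+ cells were enriched with magnetic beads after enzymatic digestion, and their mRNA was counted on the BD Rhapsody platform together with a panel of antibody tags. Each condition is 1 library, and the number of mice behind it is not given in the sources used here, so the spread between mice is unknown, no test between NW and ABX is possible, and all intervals below cover counting error only.

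Conventional DC arise from bone marrow precursors that carry the receptor tyrosine kinase Flt3, whose ligand drives their expansion. Type 1 conventional DC (cDC1), which take up dead cells and present their antigens to CD8+ T cells, depend on the transcription factors Irf8 and Batf3 and on Id2, an inhibitor of E proteins. Type 2 conventional DC (cDC2), which mainly prime CD4+ T cells, are tied to Irf4, and subsets of them to the zinc finger factor Klf4 and the receptor Notch2. Zeb2 is a zinc finger repressor that favours cDC2 and plasmacytoid DC (pDC) over cDC1. Zbtb46 marks the conventional DC lineage and is low in monocytes and macrophages. All DC can mature into a migratory state with high Ccr7 and Fscn1, which is called mature DC here.

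In the GRCm38 build with GENCODE M21 genes, Irf8 lies at chr8:120736358-120756694 on the plus strand, Batf3 at chr1:191097847-191108945 on the plus strand and Id2 at chr12:25093799-25097140 on the minus strand. Irf4 lies at chr13:30749226-30766976 on the plus strand, Klf4 at chr4:55527143-55532466 on the minus strand, Zeb2 at chr2:44983632-45117395 on the minus strand and Notch2 at chr3:98013527-98150361 on the plus strand. Zbtb46 lies at chr2:181387762-181459426 and Flt3 at chr5:147330741-147400489, both on the minus strand. All 9 are protein-coding genes.

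Of the 9 genes, Irf8, Irf4 and Zeb2 separated cDC1-like from cDC2-like cells most strongly, and the sequence just before their RefSeq transcription starts is shown for that reason. The windows lie outside the annotated gene, in GRCm38.p6 coordinates at chr8:120736108-120736357 on the plus strand for Irf8, chr13:30748983-30749225 on the plus strand for Irf4 and chr2:45117443-45117692 on the minus strand for Zeb2. They are written 5′ to 3′ in the direction of the gene, with capitals for a match to the core motif of PU.1, an early myeloid and DC factor.
Irf8: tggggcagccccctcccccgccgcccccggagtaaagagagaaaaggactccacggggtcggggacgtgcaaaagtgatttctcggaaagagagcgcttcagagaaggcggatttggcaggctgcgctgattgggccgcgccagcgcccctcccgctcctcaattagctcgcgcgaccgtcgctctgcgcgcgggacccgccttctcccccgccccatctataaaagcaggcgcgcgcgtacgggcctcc
Irf4: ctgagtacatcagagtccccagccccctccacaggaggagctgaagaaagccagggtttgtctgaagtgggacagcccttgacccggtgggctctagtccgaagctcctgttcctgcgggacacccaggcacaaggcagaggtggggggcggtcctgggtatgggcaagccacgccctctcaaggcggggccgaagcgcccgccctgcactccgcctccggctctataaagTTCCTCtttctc
Zeb2: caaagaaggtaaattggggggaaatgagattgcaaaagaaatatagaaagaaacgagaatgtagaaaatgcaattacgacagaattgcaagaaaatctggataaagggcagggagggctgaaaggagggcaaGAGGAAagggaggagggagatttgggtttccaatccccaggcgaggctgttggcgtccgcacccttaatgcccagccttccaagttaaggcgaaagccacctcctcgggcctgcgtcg

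The GC content was 67.2% in the Irf8 window, 63.8% in the Irf4 window and 49.6% in the Zeb2 window. Its median over the 32851 RefSeq promoter windows of 250 bases used here, which do not cover every chromosome, was 52.4%. The PU.1 core was searched as GAGGAA on both strands. It began 19 bases before the RefSeq start of Irf4, on the other strand, and 118 bases before that of Zeb2, and 23.3% of the windows used held it. The last 7 bases before the RefSeq start of Irf4 lie inside the annotated gene, so they count in the 19 but are not shown. The other motifs searched on both strands were AP-1 as TGANTCA (in 6.75% of the windows used), the ZEB E-box CACCTG (17.2%) and RBPJ, the partner of Notch receptors, as TGGGAA (21.6%). The E-box ends in TG, with which the AP-1 and RBPJ motifs begin, so neighbouring matches of these can share letters. None of these was found in the 3 windows shown, and a match or its absence describes these letters alone.

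Cells were clustered without the 9 genes, and clusters were named after cell types, with the suffix -like, from other marker genes. Of 41 clusters, 27 could be named, in 16 classes, and 11.7% of NW and 8.79% of ABX cells stayed unnamed. The DC-like classes held 1713 NW and 1231 ABX cells. Of all cells, cDC1-like cells made up 9.59% (95% binomial interval 9.08% to 10.1%, exact Clopper-Pearson) in NW and 7.14% (6.70% to 7.61%) in ABX, or 1196 and 909 cells. There were 288 and 229 cDC2-like, 175 and 72 mature DC-like, and 54 and 21 pDC-like cells. The 11 cDC1 markers, among them Xcr1 and Clec9a, summed to 5552 NW and 5513 ABX CPM (counts scaled to 1000000 UMIs of the class) in cDC1-like cells, and to 551 and 516 in cDC2-like cells. The 8 cDC2 markers, led by Cd209a, summed to 3912 and 3290 in cDC2-like and 437 and 395 in cDC1-like cells. The ABX library was the less deep, with a median of 3845.5 UMIs per cell against 5092 in NW. In cDC1-like cells the medians were 7834 and 8567.5, and in cDC2-like cells 5641 and 6121.5. Between the libraries, 196 cell labels were shared among the cells that passed, out of 371 among all barcodes.

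Levels are given as CPM of the class in its library, NW first and ABX second, and describe cells grouped by genes that go along with the 9, so no test was made between classes. Irf8 was highest in cDC1-like cells, at 1658 CPM (95% counting interval 1633 to 1683) in NW and 1508 (1479 to 1537) in ABX. The pDC-like cells followed with 984 and 1312, and in ABX their interval of 1146 to 1496 overlapped that of cDC1-like cells. B cell-like cells, with 274 and 368, stood above the macrophage-like cells at 204 and 219, whose values lay close to those of the NK and ILC1-like cells, at 200.4 and 196. Mature DC-like cells had 166 and 216 CPM and cDC2-like cells 100.3 and 39.4, which put the latter at rank 11 of the 16 classes in NW and 13 in ABX. ILC2-like cells were last in both libraries, at 36.4 and 24.8 CPM. A cDC1-like cell held a median of 12 Irf8 UMIs in NW (quartiles 6 and 21, highest 54) and 9 in ABX (quartiles 4 and 17, highest 63), and the median cDC2-like cell held none. The share of cDC1-like cells with an Irf8 UMI reached 95.3% and 95.05%, compared with 17.0% and 10.9% of cDC2-like cells and 12.5% and 10.2% of T cell-like cells, which had median depths of 3339 and 3054 UMIs. At 1000 UMIs drawn from each cell, the expected shares were 71.8% and 68.5% in cDC1-like, 4.64% and 2.999% in cDC2-like and 4.24% and 3.73% in T cell-like cells, so the share in cDC2-like cells lay near the background level of T cell-like cells.

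Batf3, the AP-1 partner of Irf8 in cDC1, had the same first 4 classes in both libraries, and mature DC-like cells led it with 261 CPM (236 to 289) in NW and 201 (164 to 242) in ABX. Next came cDC1-like cells with 155 and 138, cDC2-like cells with 79.7 and 63.4 and macrophage-like cells with 45.9 and 46.4 CPM. The intervals of neighbours among these 4 did not overlap. All other classes had at most 37.5 CPM in either library. UMIs of both Irf8 and Batf3 were held by 64.7% and 57.1% of cDC1-like cells and by 7.29% and 4.37% of cDC2-like cells.

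Id2, the E-protein inhibitor, was spread over lineages. It stood highest in mature DC-like cells, at 1633 (1568 to 1699) and 1657 CPM (1549 to 1770), and next in NK and ILC1-like cells, at 1495 and 1576, ILC2-like cells, at 1413 and 1379, and cDC1-like cells, at 1245 and 1254. The intervals of mature DC-like and NK and ILC1-like cells overlapped in both libraries. T cell-like cells had 1095 and 1190 CPM. In cDC2-like cells Id2 was at 207 and 334 CPM, and macrophage-like and B cell-like cells lay at 99.0 and 174 and at 121 and 121. UMIs of Irf8 and Id2 together were held by 91.3% and 90.4% of cDC1-like cells and by 7.99% and 4.803% of cDC2-like cells.

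**Figure D1:**
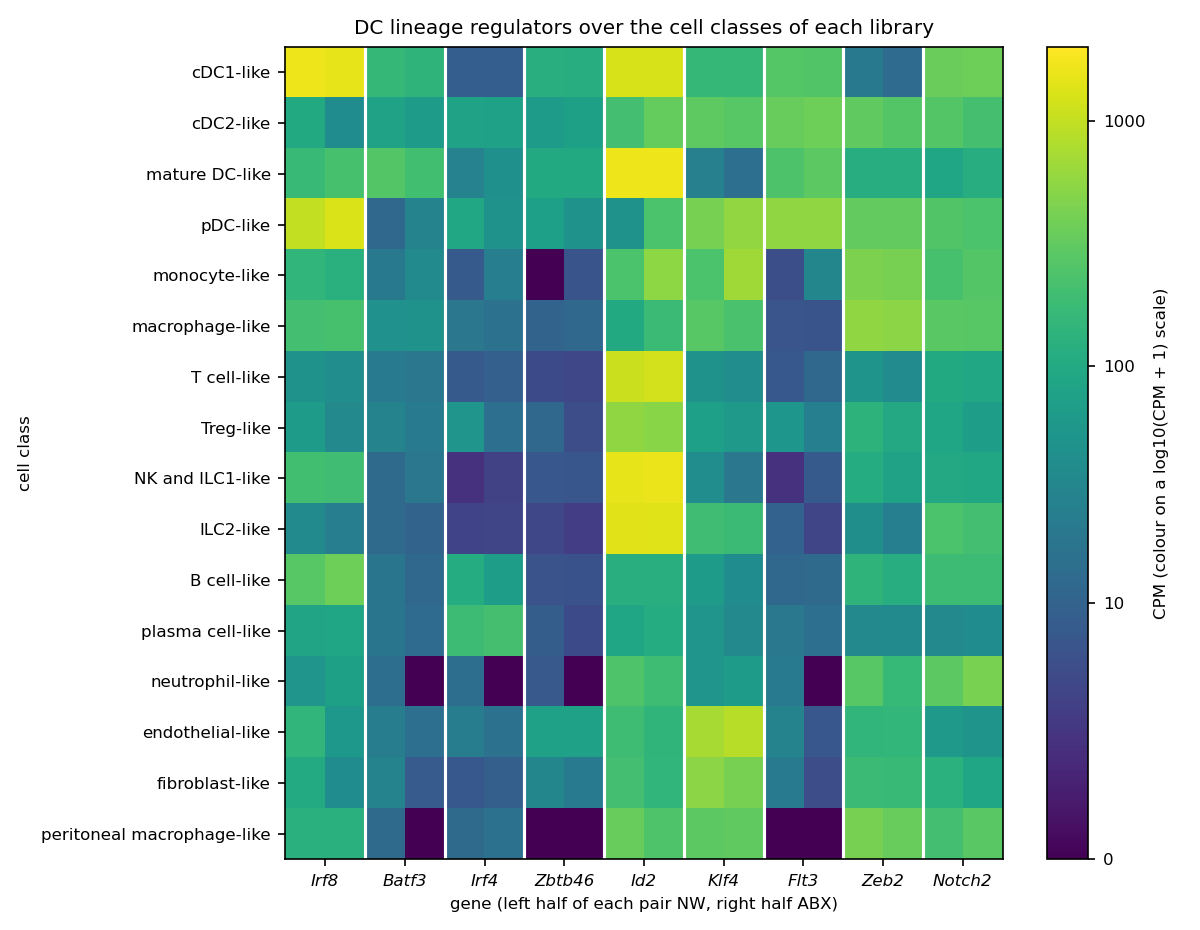
Heatmap of the level of each of the 9 genes (columns) in the 16 classes (rows), in CPM of the class, with the NW value in the left part and the ABX value in the right part of each cell. Irf8 is highest in cDC1-like cells (1658 and 1508 CPM), Batf3 in mature DC-like cells (261 and 201), Irf4 in plasma cell-like cells (180.0 and 210.4) and Zeb2 in macrophage-like cells (559 and 535).

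Among the genes tied to cDC2, Irf4 reached its highest level outside the DC. Plasma cell-like cells, in which Irf4 drives antibody secretion, had 180.0 and 210.4 CPM. B cell-like cells with 109 and 67.6, pDC-like cells with 90.1 and 46.9 and cDC2-like cells with 78.0 (65.7 to 92.1) and 76.6 (62.2 to 93.2) could not be ranked beyond their counting intervals in both libraries. Mature DC-like cells had 27.8 and 45.0 CPM and cDC1-like cells 8.56 and 8.64. An Irf4 UMI was found in 30.2% and 27.9% of cDC2-like cells, and in 5.94% of cDC1-like cells in both libraries, although these were the deeper cells.

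Zeb2 was highest in macrophage-like cells, at 559 (551 to 567) and 535 CPM (525 to 545), and lowest of all 16 classes in cDC1-like cells, at 20.4 (17.7 to 23.3) and 13.1 (10.5 to 16.1). Between them lay monocyte-like cells with 447 and 419, pDC-like cells with 322 and 322, cDC2-like cells with 309 and 257 and mature DC-like cells with 112 and 112 CPM. The values of pDC-like and cDC2-like cells overlapped in both libraries. ILC2-like cells, next to last over both libraries together with 42.7 and 25.3 CPM, stood clear of the cDC1-like cells. UMIs of Irf4 and Zeb2 together were held by 23.6% and 18.8% of cDC2-like cells, and by 0.92% and 0.55% of cDC1-like cells.

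Klf4, a factor of endothelium as well as of myeloid cells, was led by endothelial-like cells with 734 and 884 CPM. In pDC-like cells it had 422 and 580, in cDC2-like cells 302 (277 to 329) and 274 (246 to 304), in macrophage-like cells 275 and 223 and in cDC1-like cells 157 and 154 CPM. Mature DC-like cells were the lowest class in both libraries, at 26.5 (18.8 to 36.2) and 15.0 (6.47 to 29.5) CPM, and in ABX this rested on 8 UMIs.

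Notch2, the receptor whose signal shapes splenic and intestinal DC subsets, was not led by cDC2-like cells. It had 352 (341 to 364) and 372 CPM (358 to 387) in cDC1-like cells, 292 and 431 in neutrophil-like cells, 283 and 274 in macrophage-like cells and 259 (236 to 284) and 214 (190 to 241) in cDC2-like cells. Mature DC-like cells had 89.5 and 112 CPM, and plasma cell-like cells were lowest in both libraries. The order among macrophage-, pDC-, cDC2-, monocyte- and ILC2-like cells was not resolved by the counting intervals in both libraries.

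Flt3 and Zbtb46 were found in all DC-like classes, although the pDC-like cluster held unlike cells, as described below. Flt3 was highest in pDC-like cells, at 567 (497 to 643) and 562 CPM (455 to 687), followed by cDC2-like cells at 342 and 377, cDC1-like cells at 268 and 255 and mature DC-like cells at 237 and 291. The last 2 exchanged ranks between the libraries. Outside the DC the highest values were 53.2 CPM in NW, in Treg-like cells, and 31.3 CPM in ABX, in monocyte-like cells on 5 UMIs, and macrophage-like cells had 6.36 and 6.17. A Flt3 UMI was found in 78.1% and 75.2% of cDC1-like and 74.3% and 76.9% of cDC2-like cells, against 3.48% and 2.42% of macrophage-like cells with median depths of 5630 and 3979 UMIs. DC-like cells, which were 13.7% of NW and 9.67% of ABX cells, held 72.8% and 69.9% of all Flt3 UMIs, the highest share of the 9 genes. Zbtb46 had 117 (111 to 124) and 114 CPM (106 to 122) in cDC1-like, 101 and 99.3 in mature DC-like and 65.8 and 73.5 in cDC2-like cells. The pDC-like cells had 71.1 and 46.9 Zbtb46 CPM, on 30 and 8 UMIs. Endothelial-like cells, with 75.4 CPM in both libraries, fell among the DC, and macrophage-like cells had 10.3 and 11.9 CPM. In monocyte-like cells no Zbtb46 UMI was found in 52 NW cells and 1 in 43 ABX cells.

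**Figure D2:**
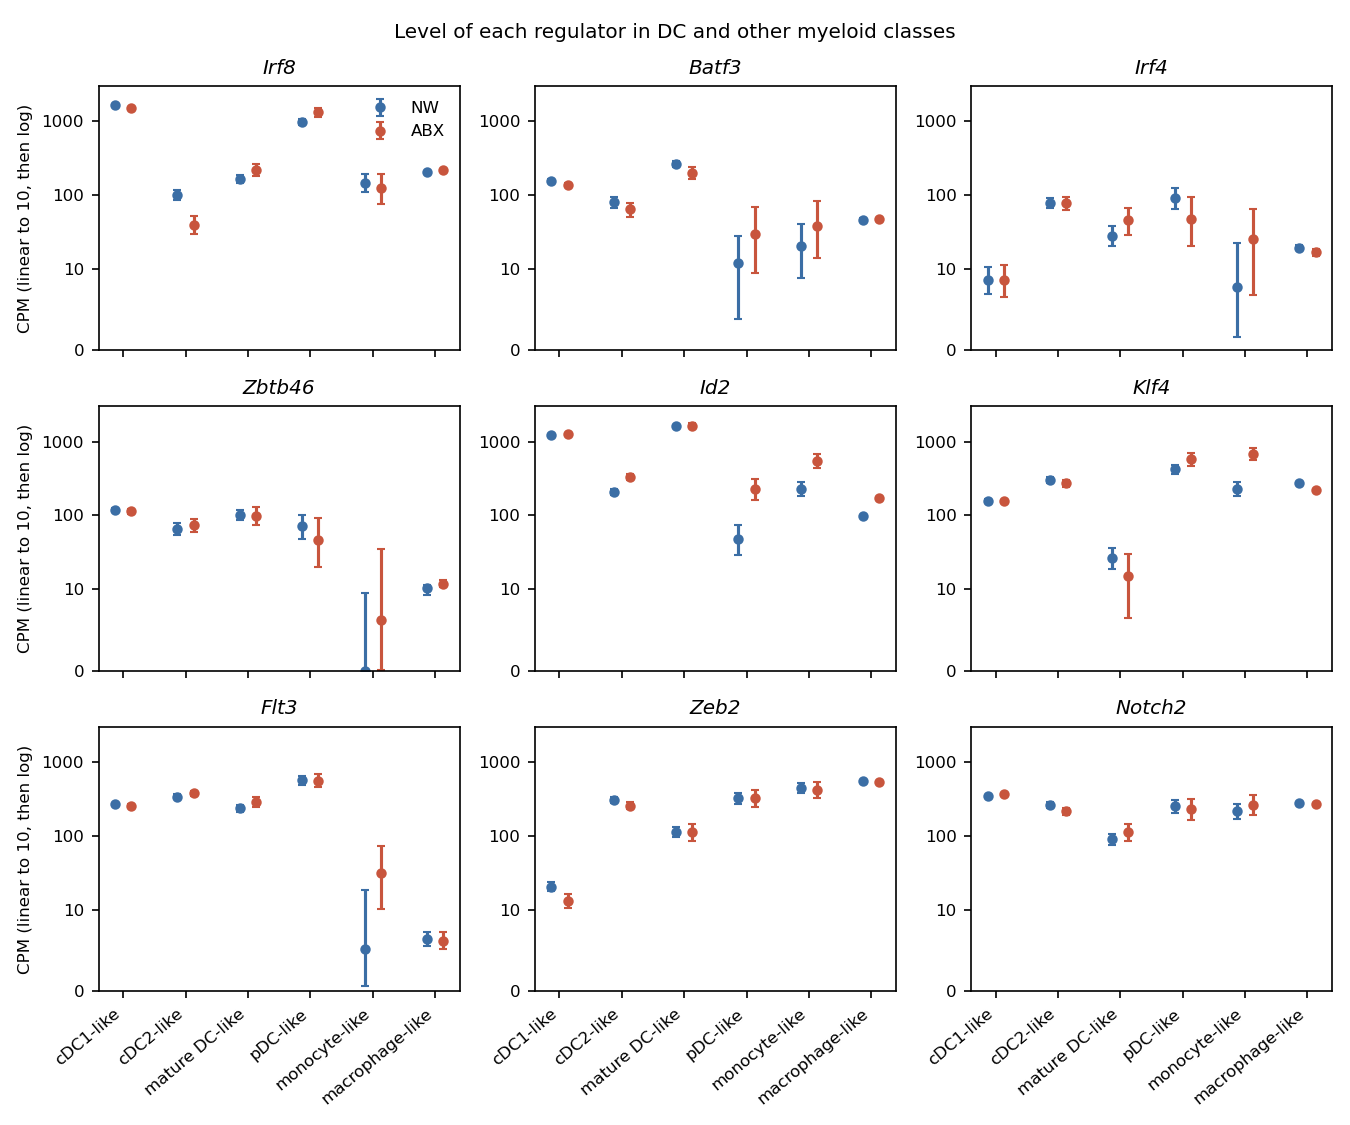
Level of each gene (1 panel per gene) in the 6 DC and myeloid classes, in CPM of the class, with points for NW (blue) and ABX (red) and bars for the exact 95% counting interval. The vertical axis is linear up to 10 CPM and logarithmic above, and in cDC1-like cells the panels show Irf8 at 1658 CPM in NW and 1508 in ABX and Zeb2 at 20.4 and 13.1.

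The contrast between cDC1-like and cDC2-like cells within a library was counted with a rule of at least 2-fold and a 95% counting interval of the ratio without 1. Of the 9 genes, 4 passed in NW and 5 in ABX, where 13.7% and 14.2% of all genes with at least 20 UMIs passed. Irf8 was 16.5-fold higher (14.3 to 19.2) in cDC1-like cells in NW and 38.2-fold (29.1 to 51.4) in ABX. Id2 was 6.00-fold higher (5.41 to 6.67) and 3.75-fold (3.41 to 4.14). Batf3 was 1.95-fold higher (1.64 to 2.32) in NW and 2.18-fold (1.74 to 2.76) in ABX, which placed it past the 2-fold limit in ABX alone. In the other direction, Zeb2 was 15.2-fold higher in cDC2-like cells in NW and 19.6-fold in ABX, and Irf4 9.12-fold and 8.87-fold. Klf4, with 1.93-fold and 1.77-fold, and Flt3, with 1.28-fold and 1.48-fold, were also higher in cDC2-like cells but under the limit. Zbtb46 (1.78-fold and 1.55-fold) and Notch2 (1.36-fold and 1.74-fold) were higher in cDC1-like cells under the limit as well. All 9 genes thus had the same direction in both libraries. The direction of Flt3 changed when cells were assigned by marker UMIs without clusters, to a log2 ratio of 0.49 in NW and 0.66 in ABX.

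The Irf8 contrast varied in size with the way the classes were made. Over 7 alternatives its log2 ratio of cDC1-like to cDC2-like cells ran from 2.32 to 5.32 in NW and from 3.23 to 6.59 in ABX, or 5.003- to 39.9-fold and 9.40- to 96.2-fold. That of Zeb2 ran from -3.99 to -3.22 in NW and from -4.50 to -3.40 in ABX, and that of Irf4 from -3.27 to -2.52 and from -3.19 to -2.45. Of the 288 cDC2-like cells in NW, 3 held 116 of the 180 Irf8 UMIs, and 3 of 229 in ABX held 25 of 51. Their part in this range was not tested.

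Mature DC-like cells were under 2-fold from cDC1-like cells in Batf3, Id2, Zbtb46 and Flt3 and lacked their high Irf8. Zbtb46 and Flt3 were under 2-fold from cDC2-like cells as well. Against cDC1-like cells, 5 of the 9 genes passed the 2-fold rule in each library, beside 30% of all genes in NW and 26.1% in ABX. Irf8 was 10.02-fold lower in NW and 6.997-fold lower in ABX, Klf4 5.93-fold and 10.3-fold lower and Notch2 3.93-fold and 3.31-fold lower in mature DC-like cells. Zeb2 was 5.50-fold (4.45 to 6.78) and 8.59-fold (6.09 to 12.0) higher and Irf4 3.25-fold (2.19 to 4.76) and 5.21-fold (3.10 to 8.49) higher. Zbtb46 and Flt3 were within 1.5-fold in both libraries. Against cDC2-like cells, 6 genes passed in NW and 5 in ABX, beside 31.2% and 29.9% of all genes. Id2 was 7.87-fold and 4.96-fold and Batf3 3.28-fold and 3.16-fold higher in mature DC-like cells, while Klf4 was 11.4-fold and 18.3-fold lower, Zeb2 2.76-fold and 2.28-fold lower and Notch2 2.89-fold and 1.91-fold lower. Irf4 was 2.81-fold and 1.70-fold lower than in cDC2-like cells. Irf8 was 1.65-fold and 5.46-fold higher than in cDC2-like cells, where it was low. Zbtb46 was 1.54-fold and 1.35-fold higher and Flt3 1.44-fold and 1.30-fold lower than in cDC2-like cells, under the limit. Irf4 and Notch2 passed in NW alone and Irf8 in ABX alone.

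Against macrophages, the other large myeloid population of the tissue, 5 of the 9 genes passed in cDC2-like cells in each library, beside 25.9% and 24.8% of all genes. Flt3 separated them most, with 53.7-fold (46.0 to 62.8) in NW and 61.1-fold (50.5 to 74.4) in ABX. Zbtb46 was 6.39-fold and 6.17-fold and Irf4 4.06-fold and 4.62-fold higher in cDC2-like cells, while Irf8 was 2.04-fold and 5.55-fold and Zeb2 1.81-fold and 2.08-fold lower. Id2 was 2.10-fold and 1.92-fold higher in cDC2-like cells, so Id2 passed in NW alone and Zeb2 in ABX alone. Klf4 and Notch2 differed by at most 1.28-fold. Against the monocyte-like cells, 4 genes passed in NW and 5 in ABX, beside 20.1% and 15% of all genes, and Flt3 was 66.5-fold (18.3 to 551) higher in cDC2-like cells in NW, on 2 UMIs in the monocyte-like cells, and 12.1-fold (5.14 to 37.4) in ABX, on 5. Zbtb46 had 118 UMIs in cDC2-like and 0 in monocyte-like cells in NW, and in ABX it was 11.8-fold (2.06 to 469) higher, on 1 UMI in the monocyte-like cells. Irf4 in both libraries and Batf3 in NW also passed as higher in cDC2-like cells. In ABX Irf8 was 3.17-fold (1.79 to 5.41) and Klf4 2.49-fold (1.99 to 3.09) lower in cDC2-like cells. In NW Irf8 was 1.46-fold lower and Klf4 1.31-fold higher there, under the limit. Between pDC-like and cDC2-like cells, 3 genes passed in NW and 2 in ABX, beside 12.9% and 12.4% of all genes. Irf8 was 9.80-fold (8.21 to 11.7) and 33.3-fold (24.4 to 46.0) higher in pDC-like cells. In NW Batf3 was 6.73-fold and Id2 4.37-fold lower there, and in ABX Klf4 was 2.12-fold higher.

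Within the DC, clusters differed in ways that the class values average over. The largest cDC1-like clusters, of 581 NW and 531 ABX cells and of 419 and 235 cells, had 1549 and 1461 and 1662 and 1357 Irf8 CPM. A cluster of 144 and 88 cDC1-like cells led by the immediate early genes Egr3 and Nr4a2 had the highest Irf8 of the deeper clusters, 1982 and 2120 CPM, and also the highest Klf4 among the cDC1-like clusters, 282 and 325 CPM against 150.4 and 153 in the largest. A small cDC1-like cluster of 52 and 55 cells was shallow, with medians of 2065.5 and 1771 UMIs and 19.2% and 18.9% mitochondrial UMIs, and it had the highest Batf3 of the cDC1-like clusters, 343 and 296 CPM. Mitochondrial share and depth move with that value, and their part in it was not tested.

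Cycling cells with DC markers differed from each other as the named classes did. A cluster of 75 NW and 60 ABX cells led by Top2a and Mki67, left unnamed for that reason and closest to cDC1 by its markers, had 1052 and 885 Irf8 CPM, 1043 and 1243 Id2 CPM, 225 and 236 Flt3 CPM, 25.3 and 18.4 Zeb2 CPM and 8.1 and 10.5 Irf4 CPM. A second one, of 27 and 21 cells and closest to cDC2, had 4.3 and 10.1 Irf8 CPM, 76.8 and 65.8 Irf4 CPM, 312 and 228 Klf4 CPM and 239 and 390 Flt3 CPM. Irf8 was the higher in the first and Irf4 in the second. The second cluster is small, and its low Irf8 values rest on few UMIs. Another unnamed cluster of 317 and 334 shallow cells, with medians of 1436 and 1312.5 UMIs, combined 347 and 319 Flt3 CPM with 569 and 664 Zeb2 CPM and 271 and 180 Batf3 CPM. Its mitochondrial shares of 18.2% and 17.6% were above the 5.49% and 5.67% of cDC2-like cells.

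**Figure D3:**
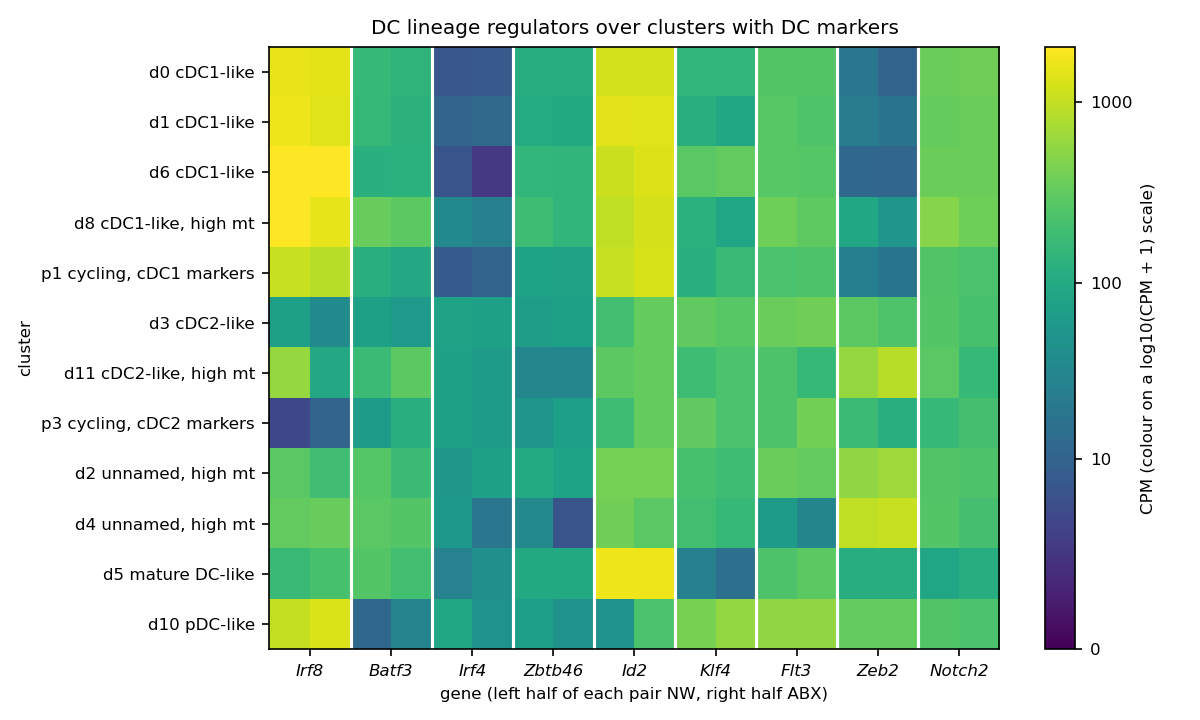
Heatmap of the levels of the 9 genes in the clusters with DC markers (rows), in CPM of the cluster, with NW on the left and ABX on the right of each cell. The cycling cluster closest to cDC1 has 1052 and 885 Irf8 CPM and that closest to cDC2 has 4.3 and 10.1, on few UMIs.

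The pDC-like cluster was not uniform in Irf8, which pDC also carry. An Irf8 UMI was found in 27 of 54 NW cells and 15 of 21 ABX cells, and this division was made after the values were seen, so it is a description. In NW, the cells with Irf8 held 1961 Siglech CPM and those without 54.8, and Ly6d, Cox6a2 and Klk1 were at 419, 399 and 167 CPM with Irf8 and had no UMI without it. The median depths of 7726 and 7665 UMIs were alike. The cDC2 marker Cd209a had 759 and 644 CPM in the same cells, and Flt3 483 and 644. Irf4 was at 64.0 CPM with Irf8 and 114 without, Zbtb46 at 59.1 and 82.2, and Zeb2 at 414 and 238. The ABX cells divided likewise, with 1831 Siglech CPM in cells with Irf8 and 381 in those without. In these ABX cells Flt3 had 429 CPM with Irf8 and 910 without, and Zbtb46 16.2 and 127 on 2 and 6 UMIs. The NW cells without Irf8 thus held Flt3 and Cd209a but went against the pDC name, with 3 of the 7 pDC markers at 0.

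**Figure D4:**
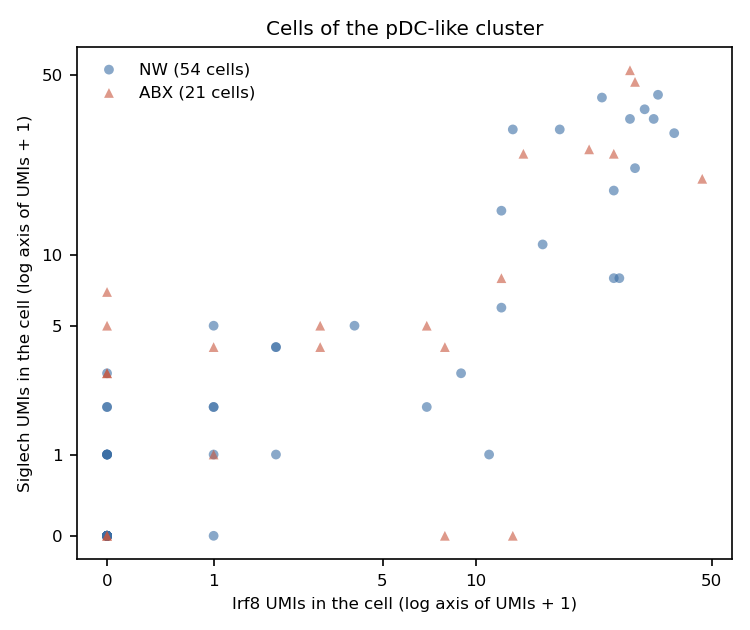
Irf8 UMIs (horizontal axis) against Siglech UMIs (vertical axis) in each cell of the pDC-like cluster, for 54 NW and 21 ABX cells. Of the NW cells, 27 hold no Irf8 UMI, and these hold 12 Siglech UMIs, against 398 in the other 27.

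NW and ABX were compared within each class by the ratio of CPM, with a rule of at least 1.5-fold and a 95% counting interval without 1. In cDC1-like cells 1 of the 9 genes passed, beside 4.26% of all 11134 genes with at least 20 UMIs. It was Zeb2, which had 20.4 CPM on 207 UMIs in NW and 13.1 CPM on 91 UMIs in ABX, a log2 ratio of -0.64 (-1.01 to -0.27). The 11 macrophage markers moved with it in these cells, from 602 to 395 CPM in sum with none at 0 in either library, and their part in the Zeb2 value was not tested. By cluster, the Zeb2 ratio was -0.88 (-1.45 to -0.33) in the largest, -0.44 (-1.04 to 0.14) in the next and -0.05 in the cluster led by Egr3. None of the 9 passed in this class with 50 principal components or with classes from marker UMIs. The cDC1 factors themselves differed little, Irf8 with a log2 ratio of -0.14 (-0.17 to -0.10), Batf3 with -0.17 (-0.29 to -0.05) and Id2 with 0.01. Flt3, at -0.07, Zbtb46, at -0.05, Klf4, at -0.02, and Notch2, at 0.08, lay as close to 0, and so did Irf4, at 0.01 on 87 and 60 UMIs. The median of the 9 was -0.05 and that of all genes -0.00.

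In cDC2-like cells 2 of the 9 genes passed, beside 6.56% of all genes. Irf8 had 100.3 CPM in NW and 39.4 in ABX, a log2 ratio of -1.35 (-1.83 to -0.89). It rested in part on the 3 NW cells that held 64.4% of the UMIs, with 31 or more each and 53 in the highest. Without the 3 cells with the most Irf8 UMIs in each library, a setting chosen after the data were seen, Irf8 had 36.7 and 20.6 CPM and the log2 ratio was -0.84 (-1.55 to -0.16). With the 9 genes allowed in the clustering the ratio was -0.35 and with antibodies in the clustering -0.51, both under the limit, and with classes from marker UMIs without clusters the direction turned, to 0.31. The class joins 2 clusters. In the larger, of 254 NW and 210 ABX cells, Irf8 had 73.4 and 38.0 CPM (-0.95, -1.46 to -0.46), and in the smaller, of 34 and 19 cells, 602 and 97.7 CPM on 55 and 3 UMIs. Id2 had 207 CPM (187 to 230) in NW and 334 (303 to 367) in ABX, a log2 ratio of 0.69 (0.48 to 0.89), and it was 0.72 without the 3 highest cells of each library. An Id2 UMI was held by 36.1% and 48.5% of cDC2-like cells, or 12.7% and 19.1% at 1000 UMIs per cell, against 19.5% and 20.1% of B cell-like cells as sequenced, with median depths of 4297 and 4096 UMIs. The Id2 ratio was under the limit at 0.15 with 50 principal components, 0.17 with antibodies in the clustering, 0.45 at resolution 1.0, 0.48 with a 10% mitochondrial limit and 0.55 with classes from marker UMIs. Among the marker lists in these cells, the 10 mature DC markers moved from 115 to 205 CPM, with 1 at 0 in ABX, the macrophage markers from 995 to 702 and the 8 dissociation stress genes from 9292 to 7367, while the cDC1 markers had 551 and 516. The part of these in the Irf8 and Id2 values was not tested.

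The genes tied to cDC2 did not pass in cDC2-like cells. Irf4 had a log2 ratio of -0.03, Klf4 of -0.14, Zeb2 of -0.27 (-0.47 to -0.07) and Notch2 of -0.27 (-0.49 to -0.06). Batf3 had -0.33, Flt3 0.14 and Zbtb46 0.16, and the median of the 9 was -0.14. In mature DC-like cells none of the 9 passed, beside 7.87% of all genes, and the 72 ABX cells left wide intervals. At resolution 1.0, which draws the class differently, 3 passed. Irf8 had a log2 ratio of 0.38 (0.05 to 0.71), Batf3 of -0.38 (-0.70 to -0.07), Irf4 of 0.69 (-0.10 to 1.45) and Klf4 of -0.82 (-2.13 to 0.30), which turned to 1.26 at resolution 1.0. For Irf8, 3 ABX cells held 48 of the 115 UMIs. Without the 3 highest cells of each library its ratio was 0.02 (-0.41 to 0.42).

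**Figure D5:**
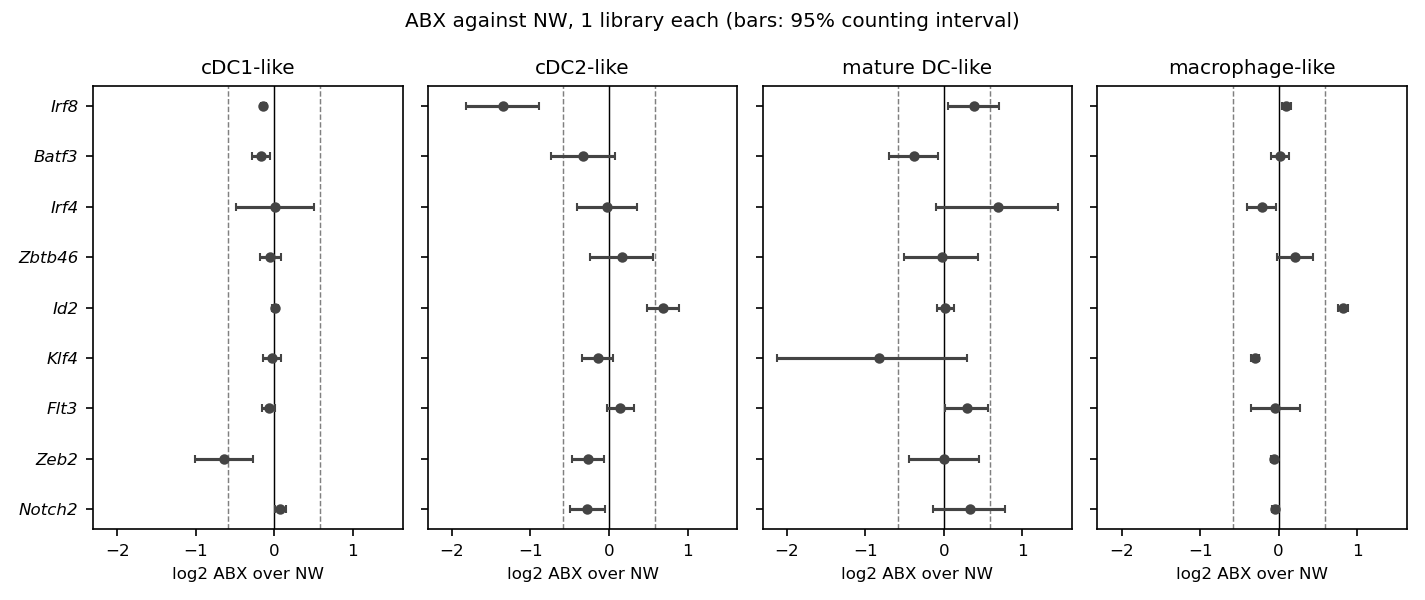
Log2 ratio of ABX to NW CPM of each gene in cDC1-, cDC2-, mature DC- and macrophage-like cells, with bars for the exact 95% counting interval and dashed lines at 1.5-fold. Irf8 in cDC2-like cells (-1.35) and Zeb2 in cDC1-like cells (-0.64) lie below the lower line, and Id2 lies above the upper line in cDC2-like (0.69) and macrophage-like cells (0.82).

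In macrophage-like cells, the largest class with 5834 NW and 5128 ABX cells, 1 of the 9 genes passed, beside 7.94% of all genes. Id2 had 99.0 CPM (95.7 to 102) in NW and 174 (169 to 180) in ABX, a log2 ratio of 0.82 (0.75 to 0.88). The ratio was 0.48, under the limit, without cells that held markers of another lineage. An Id2 UMI was found in 25.3% and 24.7% of these cells as sequenced and in 7.97% and 11.04% at 1000 UMIs per cell. The 11 macrophage markers had 20994 and 17550 CPM in sum and the stress genes 16583 and 16363, and their part was not tested. The largest cluster was not the same in the libraries, since 2997 NW and 1578 ABX cells lay in one and 2039 and 2666 in another. Within these, Id2 had 60.7 and 82.4 CPM (log2 ratio 0.44, interval 0.31 to 0.57) and 118 and 154 CPM (0.38, 0.26 to 0.50). It was highest in ABX among the 5 clusters in the one led by Gdf15, Lpl and Gpnmb, with 381 and 506 CPM, followed by that led by Ccl12, Cx3cr1 and Il1b, with 244 and 468 CPM (0.94, 0.81 to 1.07). The interferon-gene cluster went the other way, with 139.8 and 121 CPM (-0.21, -0.63 to 0.20). Klf4 had a log2 ratio of -0.30 (-0.35 to -0.25) in the class, under the limit, and was below 0 in all 5 clusters. Irf8, at 0.10, and Zeb2, at -0.06, were close to 0.

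Monocyte-like cells were few, 52 and 43, and 2 of 5 tested genes passed, beside 20.2% of all genes. Klf4 had 231 CPM (186 to 284) in NW and 681 (559 to 822) in ABX, a log2 ratio of 1.56 (1.14 to 1.98), and a Klf4 UMI was found in 53.8% and 76.7% of the cells, whose median depths were 4779.5 and 3308 UMIs, against 14.3% and 9.72% of mature DC-like cells, whose depths were 8056 and 7439. Id2 had 229 and 544 CPM, a ratio of 1.25 (0.81 to 1.69), which was 0.78 (0.19 to 1.36) without the 3 highest cells of each library and 0.56, under the limit, with a 10% mitochondrial limit. In the same cells the 9 peritoneal macrophage markers went in sum from 48.8 CPM, with 4 at 0, to 731 CPM, with 2 at 0, the 11 macrophage markers went from 1680 to 856 CPM and the 8 T cell markers from 123 to 331. Their part in the Klf4 and Id2 values was not tested. In pDC-like cells Id2 passed as 1 of 8 tested genes, beside 7.27% of all genes, with 47.4 CPM on 20 UMIs in NW and 228 CPM on 39 UMIs in ABX. As 3 ABX cells held 33 of the 39 UMIs, the log2 ratio of 2.27 (1.46 to 3.12) became 0.61 (-1.11 to 2.17) without the 3 highest cells of each library. The T cell markers went from 73.5 to 169.9 CPM in the pDC-like cells, with 2 at 0 in each library, and their part was not tested.

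In Treg-like cells 3 of 9 passed, beside 8.68% of all genes, and all 3 were lower in ABX, as were 3.98% of all genes. They were Irf4, which VAT Treg cells are known to need, with 51.9 CPM on 85 UMIs and 15.1 CPM on 6 UMIs (log2 ratio -1.78, -3.27 to -0.60), Flt3 with 53.2 and 25.2 CPM (-1.08) and Irf8 with 64.2 and 35.3 CPM (-0.86). Markers of other cells moved in the same direction there, the 8 cDC2 markers from 541 to 285 CPM, with 1 at 0 in each library, and the 7 pDC markers from 328 to 80.6 CPM, with 1 and 5 at 0, and their part was not tested. In B cell-like cells Irf4 (109 and 67.6 CPM) and Klf4 (64.0 and 39.7 CPM), both with a log2 ratio of -0.69, were 2 of 9, beside 7.49% of all genes. The mature DC markers went from 636 to 222 CPM in these cells, and their part was not tested. With antibodies in the clustering Klf4 had -0.34, under the limit. In ILC2-like cells Flt3 (10.02 and 3.92 CPM, -1.35) and Zeb2 (42.7 and 25.3 CPM, -0.76) were 2 of 9, beside 6.3%, and Flt3 rested on 3 NW cells with 18 of 30 UMIs, without which, and without the 3 highest ABX cells, it was -0.33 (-1.58 to 0.93). Flt3 was also under the limit with antibodies in the clustering (-0.13) and with marker UMIs (-0.42), and Zeb2 with each cell weighted equally (-0.34). In these cells the 6 mast cell markers went from 837 to 5.89 CPM, the macrophage markers from 645 to 416, the cDC2 markers from 142 to 78.5, with 1 at 0 in each library, and the cDC1 markers from 92.8 to 64.7 CPM, and their part was not tested. In NK and ILC1-like cells Klf4 was 1 of 6, with 40.7 and 19.4 CPM (-1.07), beside 4.97%, and -0.93 (-2.06 to 0.13) without the 3 highest cells of each library and -0.21 with antibodies in the clustering. The macrophage markers went from 753 to 515 CPM there, and their part was not tested. In T cell-like cells Flt3 was 1 of 9, with 7.18 and 11.8 CPM (0.71, 0.07 to 1.38), beside 4.46%, and the direction turned with antibodies in the clustering, to -0.16, and with marker UMIs, to -0.21. None of the 9 passed in plasma cell-like cells, where 10.9% of all genes did. B cell precursors with Rag1 and Vpreb1, a cluster of 36 and 17 cells within the B cell-like class, had 233 and 191 Irf4 CPM and 357 and 477 Zeb2 CPM.

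In the other classes, Irf8 was lower in ABX in endothelial-like cells (147 and 57.1 CPM on 86 and 75 UMIs, -1.37, -1.83 to -0.90). With Flt3 (29.1 and 6.86 CPM on 17 and 9 UMIs, -2.09, -3.44 to -0.84) these were 2 of 9, beside 9.59%. Irf8 was also lower in fibroblast-like cells (103 and 38.9 CPM on 29 and 39 UMIs, -1.41, -2.14 to -0.66), as 1 of 6, beside 18.5%. The fibroblast-like class held 20 NW and 106 ABX cells. The cDC1 markers moved from 567 to 313 CPM in endothelial-like cells. In fibroblast-like cells the macrophage markers moved from 4534 to 1780 CPM and the mesothelial markers from 1583 to 293. The fibroblast markers went from 13780 to 27226 CPM there, and the B cell markers from 260 to 1861, with 4 and 1 at 0. The part of these lists in the Irf8 and Flt3 values was not tested. None of 3 tested genes passed in neutrophil-like cells and none of 5 in peritoneal macrophage-like cells, beside 14.8% and 9.85% of all genes.

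Other genes of DC development were taken from a list of 69 genes in 7 roles. In cDC1-like cells 60 could be counted, of which none was higher and 3 were lower in ABX, beside 2.35% and 1.9% of all genes. In place of 3, 5 passed with a 10% mitochondrial limit and 6 without cells of mixed markers. The 3 were the nuclear receptor gene Nr4a1, which is induced by receptor signals, from 591 to 308 CPM (log2 ratio -0.94), its relative Nr4a3 from 21.8 to 11.8 CPM (-0.89), and the pDC factor Runx2 from 7.28 to 4.46 CPM (-0.71). The 8 stress genes moved with them, from 9662 to 8258 CPM, and their part was not tested. None of the 10 counted ligands and receptors passed, with the GM-CSF receptor chains Csf2ra at 842 and 846 and Csf2rb at 170.2 and 182 CPM, and none of the 6 counted Notch pathway genes, with Rbpj, the DNA-binding partner of Notch, at 501 and 479 CPM. The early factors Irf2, at 313 and 348, and Spi1, which encodes PU.1, at 218 and 212 CPM, and the 4 other cDC1 factors, with Bcl6 at 140.0 and 128 CPM, did not pass either. The median log2 ratio of the 60 genes was -0.09.

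In cDC2-like cells 8 of 55 counted genes were higher in ABX and none was lower, beside 3.81% and 2.75% of all genes. With each cell weighted equally 4 passed in place of 8, and at 1000 UMIs per cell 3. Among the 8 were the stem cell factor receptor gene Kit (53.0 and 95.1 CPM, log2 ratio 0.85), the early and shared factors Mycl (11.2 and 30.9, 1.47) and Zfp366 (15.1 and 29.4, 0.97), the NF-kB subunit gene Relb (41.8 and 76.6, 0.87) and the maturation factors Irf1 (61.9 and 96.7, 0.64) and Nr4a3 (19.5 and 33.3, 0.77). The mature DC markers were also higher in these ABX cells, as given above, and their part was not tested. Csf2ra, at 881 and 799, Rbpj, at 444 and 389, Irf2, at 448 and 410, Tcf4, the pDC factor, at 236 and 229, and Nfkbia, at 784 and 743 CPM, did not pass. The median over the 55 genes was 0.01.

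In mature DC-like cells 3 of 51 counted genes were higher and 4 lower in ABX, beside 4.15% and 3.72% of all genes. Without cells of mixed markers 4 passed in place of the 7. The higher ones were the Notch ligand gene Jag1 (20.4 and 41.2 CPM, 1.02), Mtor (40.03 and 69.3, 0.79) and Ikzf4 (12.2 and 35.6, 1.54). The 4 lower ones were Cebpb (76.0 and 48.7, -0.64), the cDC1 factor Nfil3 (109 and 61.9, -0.81), Bhlhe40 (339 and 212, -0.68) and Runx2 (21.7 and 7.497, -1.53). Runx2 rested on 32 UMIs in NW and 4 in ABX, Ikzf4 on 18 and 19 and Jag1 on 30 and 22. The interval of the ABX to NW ratio, before log2, was 0.09 to 0.97 for Runx2 and 0.40 to 0.99 for Cebpb. Stress genes went from 4481 to 3121 CPM and macrophage markers from 1062 to 695 CPM in these cells, and their part was not tested. Relb, the NF-kB subunit that DC maturation uses, had 811 and 746 CPM, Nr4a3 854 and 941, Csf2rb 839 and 1098 and Nfkbia 849 and 815 CPM, and did not pass. The median was 0.00.

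The genes whose levels over the 16 classes were most like those of each of the 9 were ranked among 9228 genes by Pearson r of log2(CPM + 10), taking the lower r of the 2 libraries, as a description over classes that share libraries. For Irf8 they were Rab39 (r 0.78 in NW and 0.79 in ABX), Fgd2 (0.81 and 0.77) and the cDC1 marker Clec9a (0.76 and 0.74), and for Batf3 Arhgap22 (0.92 and 0.90), Tspan33 (0.90 and 0.91) and Mx1 (0.85 and 0.90). Irf4 was most like Tnfrsf13b, a receptor of B and plasma cells (0.82 and 0.73), and the light chain genes Iglc3 and Iglc2. Zbtb46 was most like Palld (0.91 and 0.94), Ptms and Rala, Id2 like Gpr132 (0.79 and 0.83), Tap2 and Slc20a1, and Klf4 like Deptor (0.86 and 0.80), Ano6 and Nfix. For Flt3 they were Igsf9 (0.87 and 0.93), Rtl5 and Syngr2, and for Notch2 Rasgrp4 (0.85 and 0.88), Camk1d and Plekho2. Zeb2 was most like the lysosomal protease gene Ctsa (0.90 and 0.89), its antisense gene Zeb2os (0.91 and 0.87) and Sirpa (0.84 and 0.86). Whether counting used the strand is not given in the sources used here, so reads of Zeb2 and Zeb2os may not be told apart. Among the 9 themselves, Flt3 and Zbtb46 had r of 0.86 and 0.77 and Batf3 and Zbtb46 0.69 and 0.76. Id2 and Zeb2 had -0.54 and -0.48, and Id2 and Irf4 -0.63 and -0.40.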

How the data were processed

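CD45+ VAT cells of 1 NW and 1 ABX library were used. The authors mapped the reads to GRCm38 with the BD WTA Rhapsody pipeline version 1.8 and deposited UMI counts (molecules per cell), per gene and per antibody. The submitters' processing notes name R 3.6.0, Seurat 3.0.1 and mm10. Library totals after filtering were 75214427 UMIs in NW and 60770758 in ABX, and the filters removed 5188 and 5061 barcodes. Exact intervals and ratios of Poisson counts were computed with Python 3.11.15, numpy 2.4.6, scipy 1.17.1 and pandas 2.3.3 on these deposited counts, and the scripts were tested on simulated data.

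Counts were log-normalized, total UMIs were regressed out, and 2000 variable genes without the 9, 30 principal components and 20 nearest neighbours went into Leiden clustering at resolution 0.6 (scikit-learn 1.9.0, python-igraph 0.11.9, leidenalg 0.10.2). DC, monocyte and cycling clusters were clustered again. Names used 145 markers. The naming rules were written after clusters had been seen, and the genes and lists were chosen with earlier results of these data known. Doublets were kept and no caller was run. An alternative leaves out cells with at least 2 markers of another lineage at 2 or more UMIs each. Named were the 9 genes in every class, all listed DC genes past the 1.5-fold rule with examples by role, and the 3 genes most like each of the 9. Some listed genes past the rule are counted but not reported here by name.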

Additional observations from a re-analysis of the deposited data

Results flagged for a closer look

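The log2 ratio of ABX to NW for Klf4 was 1.56 in monocyte-like cells, -1.07 in NK and ILC1-like cells and -0.69 in B cell-like cells, so it was past 1.5-fold in opposite directions in different classes. For Flt3 the ratio was 0.71 in T cell-like cells and -1.35 in ILC2-like cells. Neither difference between classes was tested. Both Flt3 values rest on levels of at most 11.8 CPM.

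Among the barcodes removed by the filters, which no comparison above uses, Irf8 had 131 CPM in ABX and 88.1 CPM in NW, and Id2 had 172 CPM in ABX and 136 CPM in NW. No class was given to these barcodes.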

How the results depend on the processing

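No paired analysis was possible because each condition is 1 library, which also leaves no replicate to leave out. Of the log2 ratios of ABX to NW under alternative settings, 920 stayed within their error, 73 moved and 3 that had passed the limit changed sign. Ratios not past the limit could also change sign, as Klf4 in mature DC-like cells did (-0.82, and 1.26 at resolution 1.0). Of those past it, the sign changed for Irf8 in cDC2-like cells (0.31 with classes from marker UMIs without clusters) and for Flt3 in T cell-like cells (-0.16 with clusters on mRNA and antibodies and -0.21 with marker UMIs). Over 12 alternatives the ratio of Irf8 in cDC2-like cells ran from -1.51 to 0.31, that of Id2 from 0.15 to 1.58 there, from 0.48 to 0.88 in macrophage-like cells and from 0.56 to 1.30 in monocyte-like cells, that of Klf4 in monocyte-like cells from 1.2 to 1.61 and that of Zeb2 in cDC1-like cells from -0.86 to -0.28.

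The number of the 9 genes past 1.5-fold in cDC1-like cells was 0 in place of 1 with 50 principal components, with classes from marker UMIs and with a 2-fold limit. In cDC2-like cells it was 1 in place of 2 at resolution 1.0, with 50 principal components, with the 9 genes allowed in the clustering and with a 2-fold limit, and 0 with antibodies in the clustering and with marker UMIs. In mature DC-like cells it was 1 in place of 0 with a 10% mitochondrial limit, without cells with markers of another lineage and with antibodies, 3 at resolution 1.0 and 2 with marker UMIs. The number of other DC genes was 5 (10% mitochondrial limit) and 6 (without cells of mixed markers) in place of 3 in cDC1-like cells, 4 (each cell weighted equally) and 3 (1000 UMIs per cell) in place of 8 in cDC2-like cells, and 4 (without cells of mixed markers) in place of 7 in mature DC-like cells. The cause of these changes was not tested. Scaling by the median gene ratio shifted the median by more than 0.1 in monocyte-like cells alone, by 0.12. In small classes a gene can rest on a few UMIs.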
